A study of Mus musculus with 16 samples.

Results

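The T cell receptors described here are those of CD44high CD4+ T cells from mice treated with anti-4-1BB, an agonistic antibody to 4-1BB (CD137), set against mice given control IgG, in experiment 1. Members were the cells of the 4 libraries that the labels mark as batch ASD1 in which exactly 1 beta chain (TRB) contig and 1 or 2 alpha chain (TRA) contigs were found. They numbered 18312 of the 32940 cells listed in experiment 1, against 38108 cells chosen by the same rule in the 8 libraries of both experiments. The anti-4-1BB libraries held 8871 members from Eomes WT mice (labelled Eomes-IRES-GFP) and 2656 from Eomes KO mice (labelled Eomesfl/fl-CD4Cre, in which Cre is driven by the CD4 promoter). The IgG libraries held 4057 members from WT and 2728 from KO mice. All 4 groups received an NK1.1-depleting antibody (50 µg on days -2 and 5) and Vk12653 multiple myeloma cells on day 0. Anti-4-1BB or IgG was given at 20 µg on days 10, 13 and 16, and spleen cells were taken on day 18. Each group is 1 library, and the labels do not say whether a library is 1 mouse or a pool. The genotypes WT and KO serve as 2 pairs, so the spread given below mixes genotype with variation between libraries, and p-values measure only the spread between these libraries. Experiment 2 differed in its knockout, which used a tamoxifen-dependent Cre with tamoxifen given to all mice.

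Each alpha beta T cell carries a receptor joined from V and J segments (alpha chain) and V, D and J segments (beta chain), and the joins form the CDR3 loops that touch the peptide held by an MHC molecule. Cells that descend from 1 ancestor share both chains, so the number of cells with a receptor measures the size of a clone. 4-1BB is a member of the TNF receptor family that is induced on activated T cells and supports their survival and division. Eomes is a T-box transcription factor of cytotoxic and memory T cells. Some mouse Vβ families also bind viral superantigens encoded in the genome, which removes or expands whole families irrespective of the CDR3.

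The libraries differed in depth with treatment. The anti-4-1BB libraries held 445027 (WT) and 100044 (KO) TCR UMIs, against 148333 (WT) and 80551 (KO) in the IgG libraries. The median member had 18 and 14 TRB UMIs and 9 and 8 TRA UMIs in WT and KO with anti-4-1BB, against 12 and 10 TRB UMIs and 7 and 6 TRA UMIs in WT and KO with IgG. Cells with a TRB contig and no TRA contig, which are not members, made up 25.9% (WT) and 30.9% (KO) of the anti-4-1BB libraries and 42.3% (WT) and 33.8% (KO) of the IgG libraries. The part of this depth difference in the results below was not tested. Pairs of libraries shared 11 to 64 cell barcodes, and 0 of those barcodes carried the same TRB in both. CD4, CD44 and other sort markers could not be checked, since only TRA and TRB chains are listed and the gene expression libraries were not analysed here. The receptor of MAIT cells (TRAV1 joined to TRAJ33) was found in 2 and 0 cells (WT, KO) with anti-4-1BB and in 0 cells of either IgG library.

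In both genotypes repeated receptors were a smaller fraction of cells under anti-4-1BB than under IgG. Cells of a library that matched in TRB and in main TRA, by V, J and CDR3 nucleotides, formed a clonotype. The expanded share, which counts the cells whose clonotype held at least 2 cells after each library was thinned to 2656, was 11.8% (WT) and 16.5% (KO) with anti-4-1BB, against 19.2% (WT) and 22.5% (KO) with IgG, a mean difference of -6.67 percentage points ± 1.06 (SD, n = 2 pairs). The groups did not overlap. Without thinning the shares were 22.2% (WT) and 16.5% (KO) with anti-4-1BB, against 22.8% (WT) and 22.7% (KO) with IgG, a mean difference of -3.42, so the WT libraries then nearly met. The chance that 2 cells share a clonotype, which does not depend on library size, amounted under anti-4-1BB to 1 in 11926 for WT cells and 1 in 8257 for KO cells, against 1 in 4256 for WT cells and 1 in 3049 for KO cells under IgG. On the log2 scale this difference was -1.46 ± 0.03 (SD, n = 2 pairs). With 2 libraries a side an exact permutation test cannot give a p below 0.5 with the genotypes paired, so these values carry no test.

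**Figure D1:**
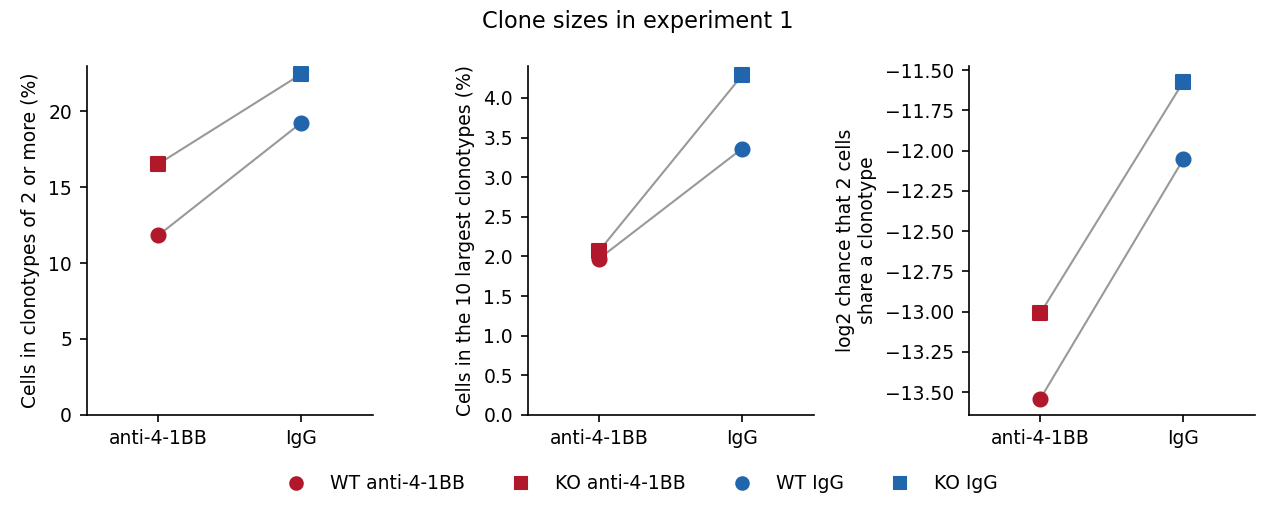
Share of cells in clonotypes of 2 or more (left), share of cells in the 10 largest clonotypes (middle; both in % after thinning to 2656 cells) and log2 chance that 2 cells share a clonotype (right), for each library of experiment 1, with lines joining the libraries of a genotype. The anti-4-1BB library of each genotype lies below its IgG library in the 3 panels, with differences of -7.42 (WT) and -5.93 (KO) percentage points in the left one.

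Large clonotypes also took less of the cells under anti-4-1BB. The 10 largest clonotypes took 1.97% (WT) and 2.07% (KO) of thinned cells with anti-4-1BB, against 3.36% (WT) and 4.29% (KO) with IgG, a mean difference of -1.80 ± 0.585 percentage points (SD, n = 2 pairs). Clonotypes of 10 or more cells numbered 13 (WT) and 1 (KO) with anti-4-1BB, against 7 (WT) and 8 (KO) with IgG. They held 2.02% (WT) and 0.414% (KO) of cells with anti-4-1BB, against 2.54% (WT) and 3.63% (KO) with IgG, so this count is separated in KO and close together in WT. The largest clonotype held 20 WT cells (0.225%) and 11 KO cells (0.414%) with anti-4-1BB, against 30 WT cells (0.739%) and 20 KO cells (0.733%) with IgG. None of the 3 largest clonotypes of a library was found as a clonotype in another library of experiment 1.

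The CDR3 sequences of the largest clonotype of each library are shown because they use 4 different TRBV segments and share no chain. In WT with anti-4-1BB another clonotype (TRBV26 with TRAV7-3) also held 20 cells, and the tied clonotype with more UMIs is shown. Capitals mark the middle of the CDR3, without the 4 codons at each end.
WT anti-4-1BB, TRBV13-1 and TRBJ1-1, TRB: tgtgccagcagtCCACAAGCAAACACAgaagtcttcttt
WT anti-4-1BB, TRAV7D-2 and TRAJ27, TRA: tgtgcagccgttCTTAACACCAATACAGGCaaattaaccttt
KO anti-4-1BB, TRBV10 and TRBJ1-4, TRB: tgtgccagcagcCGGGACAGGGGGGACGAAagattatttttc
KO anti-4-1BB, TRAV7D-2 and TRAJ13, TRA: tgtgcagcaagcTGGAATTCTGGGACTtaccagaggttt
WT IgG, TRBV15 and TRBJ2-1, TRB: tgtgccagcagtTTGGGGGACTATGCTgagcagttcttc
WT IgG, TRAV14-2 and TRAJ31, TRA: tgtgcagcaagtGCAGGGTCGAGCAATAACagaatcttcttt
KO IgG, TRBV12-2 and TRBJ2-5, TRB: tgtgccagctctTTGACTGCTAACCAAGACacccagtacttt
KO IgG, TRAV14D-3-DV8 and TRAJ12, TRA: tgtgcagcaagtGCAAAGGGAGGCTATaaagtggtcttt

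Among TRBV segments the pair that encodes Vβ5 had the highest log2 differences with anti-4-1BB, although neither passed the test across all segments. TRBV12-1 and TRBV12-2 encode Vβ5, a family that in mice recognises superantigens of endogenous mammary tumour viruses together with I-E. TRBV12-1 (GRCm38, chromosome 6:41113567-41114067) was used by 503 (WT) and 200 (KO) clonotypes with anti-4-1BB, against 63 (WT) and 21 (KO) with IgG. As a share of clonotypes this was 6.63% (WT) and 8.36% (KO) with anti-4-1BB, against 1.84% (WT) and 0.910% (KO) with IgG. Both anti-4-1BB libraries stood far above both IgG libraries. TRBV12-2 (6:41118864-41119364) was used by 2.31% (WT) and 4.52% (KO) of clonotypes with anti-4-1BB, against 1.58% (WT) and 0.694% (KO) with IgG, and here WT with anti-4-1BB lay close to WT with IgG. Together Vβ5 made up 8.94% (WT) and 12.9% (KO) of clonotypes with anti-4-1BB, against 3.42% (WT) and 1.60% (KO) with IgG, a mean difference of 8.40 ± 4.07 percentage points (SD, n = 2 pairs).

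The edgeR quasi-likelihood test did not call TRBV12-1 or any other segment. Clonotypes per segment were fitted over the 8 libraries of both experiments, with a mean for each treatment in each experiment and the genotype as a block, and adjusted p-values (Benjamini-Hochberg) under 0.05 were called. Of 153 segments 0 were called (0%), while 18 had an unadjusted p under 0.05, 8 of them higher and 10 lower with anti-4-1BB. DESeq2 called 1. TRBV12-1 had a log2 difference of 2.41 ± 0.33 (SE) and an edgeR adjusted p of 0.0508, with a range of 9.38e-07 to 0.266 over the 17 alternatives, of which 10 called it. For TRBV12-2 the log2 difference was 1.43 ± 0.46 (SE) and the edgeR adjusted p 0.299. The median log2 difference over all 153 segments was -0.01, and the 2 treatments did not overlap in 56 of them, among these 13 of the 22 TRBV segments.

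**Figure D2:**
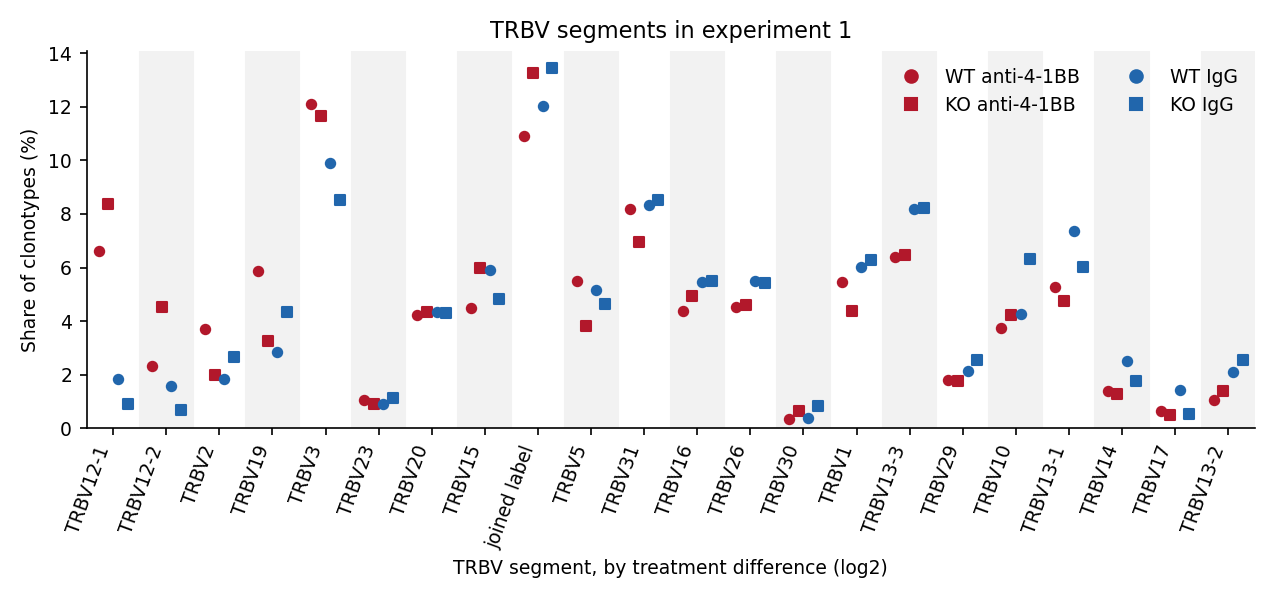
Share of clonotypes (%) that used each TRBV segment in the 4 libraries of experiment 1, ordered from the highest to the lowest log2 treatment difference; the joined label is TRBV12-2+TRBV13-2. TRBV12-1 stands at 6.63% and 8.36% in the WT and KO anti-4-1BB libraries, against 1.84% and 0.910% in the IgG libraries. TRBV13-2, counted apart from the more used joined label, lies at the other end of the order.

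The Vβ8 family, the most used one, lay on the other side. Vβ8 (TRBV13-1, TRBV13-2, TRBV13-3 and a label that joins TRBV12-2 with TRBV13-2) was used by 23.6% (WT) and 25.9% (KO) of clonotypes with anti-4-1BB, against 29.7% (WT) and 30.3% (KO) with IgG, a mean difference of -5.21 ± 1.17 percentage points (SD, n = 2 pairs). Shares sum to 100%, and with Vβ5 receptors left out the mean difference was -2.91. The label TRBV13-2 alone was used by 1.04% (WT) and 1.38% (KO) of clonotypes with anti-4-1BB, against 2.10% (WT) and 2.56% (KO) with IgG. Its log2 difference was -0.96, with an edgeR adjusted p of 0.140. Over the alternatives, 1 of which read the joined label as TRBV13-2, this difference ranged from -1.01 to -0.186. TRBV13-1 and TRBV13-3 had log2 differences of -0.41 and -0.35 with 0 overlap between the groups, and none of the 4 passed the test. The joined label had a log2 difference of -0.08, which turned to 0.04 with TMM factors and to 0.11 with DESeq2.

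Other segments with an unadjusted p under 0.05 moved less or were rare. TRAV8-1 was used by 1.02% (WT) and 1.42% (KO) of clonotypes with anti-4-1BB, against 1.84% (WT) and 1.95% (KO) with IgG, with an edgeR adjusted p of 0.138. TRAV7-4 had a log2 difference of 0.70, TRAJ33 of 0.50 and TRAV4N-3 of 0.58. The rarer TRAV9-4, TRAV9N-4 and TRAV17 had log2 differences of 1.25, 1.19 and 1.12, each below 1% of clonotypes in every library of experiment 1. TRAV9-4 and TRAV9N-4 are copies of duplicated segments that counting could split. Lower with anti-4-1BB without passing the test were TRAJ4 (log2 difference -0.59), TRBV14 (-0.69), TRAV13D-1 (-0.74) and TRAV7N-5 (-0.53). For TRAV6N-5 (-0.56) and TRAV13N-1 (-0.48) the treatments overlapped, and the sign turned without either WT library.

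The 9 Vβ labels known to bind viral superantigens in mice made up 37.0% (WT) and 40.4% (KO) of clonotypes with anti-4-1BB, against 34.8% (WT) and 33.0% (KO) with IgG. Without Vβ5 the same list gave 28.1% (WT) and 27.5% (KO) with anti-4-1BB, against 31.4% in both IgG libraries, so it stood on the other side. Of these 9 labels 3 had a positive and 6 a negative log2 difference, and 0 passed the test. TRBJ1 segments, the first of the 2 TRBJ clusters, were used by 32.9% (WT) and 30.8% (KO) with anti-4-1BB, against 30.1% (WT) and 31.7% (KO) with IgG, and the groups overlapped. TRAJ segments numbered above 30, which lie nearer to the TRAV segments, made up 50.1% (WT) and 51.4% (KO) of clonotypes with anti-4-1BB, against 47.7% (WT) and 51.0% (KO) with IgG, and overlapped as well.

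Pairings of segments within and between the chains were tested in the same way, as counts of clonotypes per TRBV-TRBJ, TRBV-TRAV and TRAV-TRAJ combination. Of 366 combinations 13 were called (3.55%), 12 higher with anti-4-1BB (3.28%) and 1 lower (0.273%; 2 without the genotype block), and 40 had an unadjusted p under 0.05. DESeq2 called 0 of them, with 17 at an unadjusted p under 0.05. The median log2 difference over all combinations was -0.15, or -0.03 with TMM factors. Of the 12 higher combinations 11 contained TRBV12-1. Of these 11, 6 with a TRBJ and 3 with a TRAV entered the test only through the anti-4-1BB libraries of experiment 1. The TRBJ and TRAV combinations also count the same TRBV12-1 clonotypes. The 12 higher against 1 lower is therefore no fair measure of direction.

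TRBV12-1 receptors with anti-4-1BB were spread over the TRBJ segments. With TRBJ1-1 there were 91 (WT) and 29 (KO) clonotypes with anti-4-1BB, against 8 (WT) and 2 (KO) with IgG, a log2 difference of 2.78 ± 0.50 (SE). With TRBJ2-4 there were 86 (WT) and 36 (KO), against 11 (WT) and 0 (KO) with IgG. With TRBJ2-7 there were 102 (WT) and 32 (KO) with anti-4-1BB, against 10 (WT) and 10 (KO) with IgG, a log2 difference of 1.93 ± 0.43 (SE). The 8 TRBV12-1 combinations with a TRBJ that were tested were all called, with log2 differences from 1.93 to 3.42. Of these 8, 6 reached the minimum of 10 clonotypes in a library only in the anti-4-1BB libraries of experiment 1 and so had to differ. The 3 tested pairings of TRBV12-1 with an alpha segment, TRAV4-4-DV10, TRAV6D-6 and TRAV7D-2, had log2 differences of 3.14, 2.54 and 1.96 and were also called, and each reached the minimum count only in the anti-4-1BB libraries.

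The other 2 pairings that were called did not contain TRBV12-1. TRBV5, which encodes Vβ1 and not Vβ5, occurred with TRAV13N-2 in 51 (WT) and 8 (KO) clonotypes with anti-4-1BB, against 5 (WT) and 1 (KO) with IgG, a log2 difference of 2.34 ± 0.68 (SE) and an edgeR adjusted p of 0.0214. It reached the minimum of 10 clonotypes only in anti-4-1BB libraries, WT of experiment 1 and KO of experiment 2 (11 clonotypes). It therefore passed the filter only through the treatment in which it was high. Of its clonotypes with anti-4-1BB, 36 (WT) and 2 (KO) belong to the class of near-identical receptors given below. The pairing and that class are therefore not separate results. TRBV13-1 with TRBJ1-4 fell to 15 (WT) and 5 (KO) clonotypes with anti-4-1BB, against 29 (WT) and 11 (KO) with IgG, or 0.198% (WT) and 0.209% (KO) of clonotypes with anti-4-1BB, against 0.847% (WT) and 0.477% (KO) with IgG, a log2 difference of -1.81 ± 0.50 (SE) and an edgeR adjusted p of 0.0202. Over the alternatives the edgeR and DESeq2 adjusted p ranged from 0.0166 to 0.957 for the TRBV5 pairing and from 0.0121 to 0.998 for the TRBV13-1 pairing. The number of pairings called was 0 without any 1 of the 4 libraries of experiment 1, 5 when experiment 1 was fitted alone, and 0 when cells were counted in place of clonotypes. The prior degrees of freedom were infinite in these fits, so each SE rests on the spread pooled over all combinations of its kind.

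Other pairings with low p did not pass the test. TRBV5 with TRAV6D-6 was seen in 11 (WT) and 0 (KO) clonotypes with anti-4-1BB, against 11 (WT) and 11 (KO) with IgG, a log2 difference of -1.90. TRBV10 with TRAV6D-6 was seen in 9 (WT) and 2 (KO) with anti-4-1BB, against 14 (WT) and 7 (KO) with IgG, a log2 difference of -1.77. The joined label with TRBJ1-2 had a log2 difference of -1.03. TRBV12-2, the other Vβ5 segment, had 5 tested combinations with a TRBJ, all with a positive log2 difference (0.01 to 2.01), and 0 of them were called.

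Vβ5 receptors were many and small with anti-4-1BB. The WT library held 651 different CDR3 amino acid sequences among its Vβ5 receptors and the KO library 306, against 116 (WT) and 36 (KO) with IgG. Of the Vβ5 clonotypes 95.7% (WT) and 96.4% (KO) were single cells with anti-4-1BB, against 89.7% (WT) and 89.2% (KO) with IgG. The share of Vβ5 cells in clonotypes of 2 or more, without thinning, was 9.36% (WT) and 8.62% (KO) with anti-4-1BB, against 25.5% (WT) and 50.7% (KO) with IgG, where a single clonotype of 20 cells weighs on the KO value. Among receptors with other Vβ the same share was 23.3% (WT) and 17.6% (KO) with anti-4-1BB, against 22.8% (WT) and 22.0% (KO) with IgG. Without Vβ5 receptors the expanded share after thinning differed by -4.69 percentage points and the log2 chance of sharing a clonotype by -1.12, so both kept their sign. Vβ5 cells had a median of 20 (WT) and 12 (KO) TRB UMIs with anti-4-1BB, beside 18 (WT) and 14 (KO) for cells with other Vβ.

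The largest TRBV12-1 clonotypes show how small these clones were, with 3 cells in both anti-4-1BB libraries, against 8 cells in WT and 3 cells in KO with IgG. Capitals again mark the middle of the CDR3.
WT anti-4-1BB, TRBV12-1 and TRBJ2-2, TRB: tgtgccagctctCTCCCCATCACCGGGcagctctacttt
KO anti-4-1BB, TRBV12-1 and TRBJ1-1, TRB: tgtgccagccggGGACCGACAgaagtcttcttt
WT IgG, TRBV12-1 and TRBJ1-3, TRB: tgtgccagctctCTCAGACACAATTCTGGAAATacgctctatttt
KO IgG, TRBV12-1 and TRBJ1-3, TRB: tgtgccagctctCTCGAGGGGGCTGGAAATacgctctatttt

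The mean CDR3 charge of Vβ5 receptors was positive with anti-4-1BB and negative with IgG. Net charge was counted over the CDR3 residues without the 4 at each end, as lysine and arginine minus aspartate and glutamate, and averaged over clonotypes. Among Vβ5 clonotypes the mean was 0.139 (WT) and 0.185 (KO) with anti-4-1BB, against -0.214 (WT) and -0.351 (KO) with IgG. Among clonotypes with other Vβ it was -0.471 (WT) and -0.443 (KO) with anti-4-1BB, against -0.466 (WT) and -0.509 (KO) with IgG, so these 4 values lay close together. Arginine stood at CDR3 position 5, counted from the cysteine, in 24.9% (WT) and 24.7% (KO) of Vβ5 clonotypes with anti-4-1BB, against 20.5% (WT) and 16.2% (KO) with IgG. With other Vβ it stood there in 6.65% to 7.71% of clonotypes. The IgG values for Vβ5 rest on few clonotypes, 37 in the KO library.

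**Figure D3:**
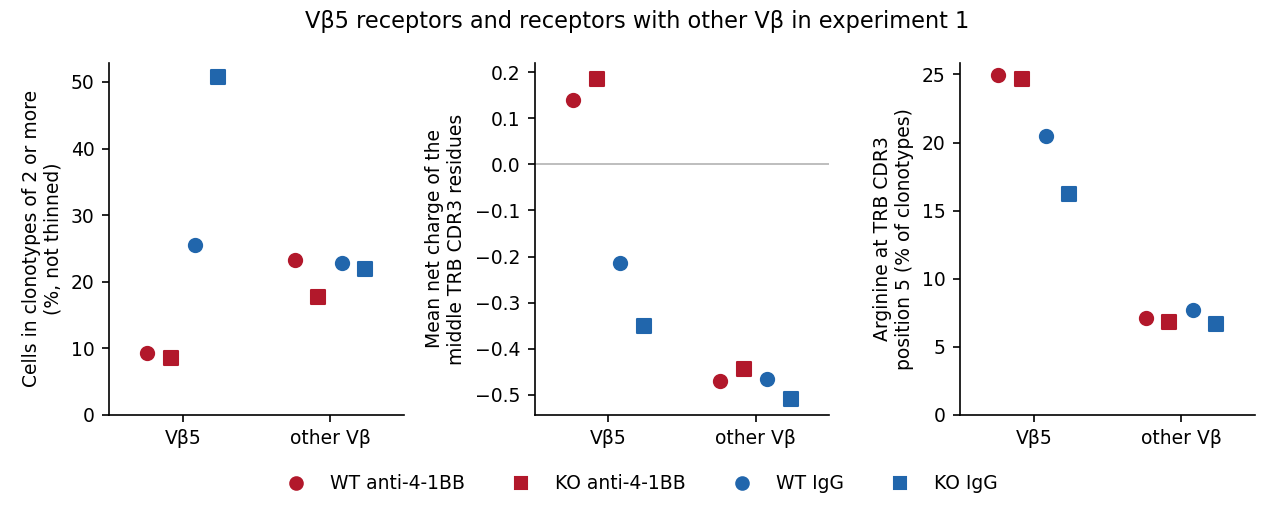
Share of cells in clonotypes of 2 or more (left, %, not thinned), mean net charge of the middle TRB CDR3 residues (middle) and share of clonotypes with arginine at TRB CDR3 position 5 (right, %), for Vβ5 receptors and receptors with other Vβ in the 4 libraries of experiment 1. Vβ5 receptors of the WT and KO anti-4-1BB libraries are few in clones (9.36% and 8.62%) and positively charged on average (0.139 and 0.185), against negative charges in the IgG libraries.

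Over all receptors the CDR3 features differed little. Mean TRB CDR3 length was 13.7 (WT) and 13.8 (KO) amino acids with anti-4-1BB, against 13.8 in both IgG libraries, a mean difference of -0.0530 ± 0.0082 (SD, n = 2 pairs), which was -0.0334 without Vβ5 receptors. CDR3 of 12 or fewer amino acids made up 16.9% (WT) and 16.8% (KO) of clonotypes with anti-4-1BB, against 14.8% (WT) and 15.2% (KO) with IgG. Mean TRA CDR3 length differed by 0.0465 ± 0.0243 amino acids (SD, n = 2 pairs). Mean hydropathy of the middle TRB residues was -1.14 (WT) and -1.11 (KO) on the Kyte-Doolittle scale with anti-4-1BB, against -1.17 (WT) and -1.20 (KO) with IgG. Mean net charge over all clonotypes was -0.416 (WT) and -0.362 (KO) with anti-4-1BB, against -0.458 (WT) and -0.506 (KO) with IgG, a mean difference of 0.0927 ± 0.0723 (SD, n = 2 pairs), which was 0.0306 ± 0.0493 without Vβ5 receptors and then differed in sign between the genotypes.

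One class of near-identical receptors recurred in many clonotypes with anti-4-1BB, almost all in the WT library. Clonotypes were grouped into classes that share V, J and CDR3 length in both chains, a grouping chosen after the data were seen, which is given as a description with no test. Of 15248 classes 14931 held 1 clonotype and 8 held 5 or more. Of these 8, 5 had 0 clonotypes in the IgG libraries and 1 had more with IgG than with anti-4-1BB. The anti-4-1BB libraries held 63.5% of all clonotypes of experiment 1, 48.3% in WT alone, so they had more chances to hold a class.

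The class of TRBV5 and TRBJ2-7 (12 amino acids) with TRAV13N-2 and TRAJ12 (12 amino acids) had 36 (WT) and 2 (KO) clonotypes with anti-4-1BB, against 0 in both IgG libraries. With anti-4-1BB it took 86 WT and 2 KO cells. That is 0.969% of WT members (95% Clopper-Pearson interval 0.776 to 1.20) and 0.0753% of KO members (0.00912 to 0.272) with anti-4-1BB, against 0 of 4057 WT and 0 of 2728 KO cells with IgG. At the same interval's upper bound these zeros allow shares of 0.0909% in WT and 0.135% in KO with IgG. These intervals and limits cover counting error only and take cells as independent, which cells of 1 clonotype are not. The class was picked for its size in these libraries, so the values are a description. In WT with anti-4-1BB the class used 20 different TRB and 17 different TRA nucleotide sequences, and its largest clonotype had 15 cells. Of the 94 cells of that library with the alpha chain of the class, 91.5% also carried its beta chain. The median cell of the class had 24 TRB and 17 TRA UMIs there. TRBV5 lies at 6:41062359-41062803 and TRAV13N-2 at 14:53253792-53254317, and TRAV13N-2 has near-identical copies in the duplicated TRAV cluster, so its label is uncertain.

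Sequences of this class are shown because different nucleotides encode nearly the same receptor in them. Capitals mark the nucleotide positions that vary within the class over both experiments.
WT anti-4-1BB, 15 cells, TRB: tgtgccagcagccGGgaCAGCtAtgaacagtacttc
WT anti-4-1BB, 15 cells, TRA: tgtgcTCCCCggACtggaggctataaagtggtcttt
WT anti-4-1BB, 7 cells, TRB: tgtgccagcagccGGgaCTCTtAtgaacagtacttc
WT anti-4-1BB, 6 cells, TRB: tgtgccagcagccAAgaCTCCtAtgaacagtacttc
WT anti-4-1BB, 5 cells, TRB: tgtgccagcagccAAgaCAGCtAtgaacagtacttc
KO anti-4-1BB, 1 cell, TRB: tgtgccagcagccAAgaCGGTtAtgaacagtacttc
KO anti-4-1BB, 1 cell, TRA: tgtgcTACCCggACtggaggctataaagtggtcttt
KO anti-4-1BB, 1 cell, TRB: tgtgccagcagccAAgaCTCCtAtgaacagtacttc
KO anti-4-1BB, 1 cell, TRA: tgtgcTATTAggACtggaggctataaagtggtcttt

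In the 38 clonotypes of experiment 1 the TRB CDR3 had the same residue at 10 of its 12 positions. Position 5 was glutamine in 34 and position 7 serine in 27 of them. The TRA CDR3 varied only at position 3, which took 6 different residues. In experiment 2 the class had 1 (WT) and 5 (KO) clonotypes with anti-4-1BB, against 0 in both IgG libraries.

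**Figure D4:**
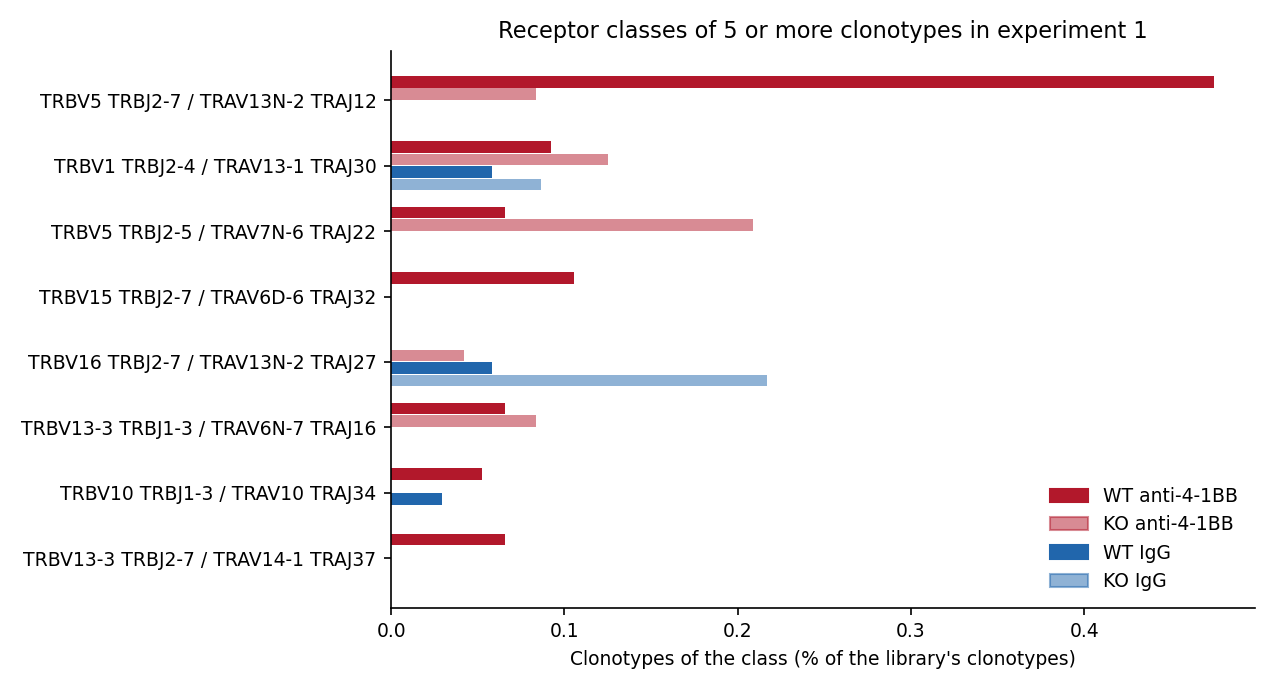
Clonotypes as a percent of the library's clonotypes in the 8 classes that share V, J and CDR3 length in both chains and held 5 or more clonotypes in experiment 1, with the WT and KO libraries as dark and light bars. The TRBV5 TRBJ2-7 with TRAV13N-2 TRAJ12 class is longest in WT with anti-4-1BB (36 clonotypes), and 5 of the 8 classes have no bar for IgG.

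The other recurrent classes were smaller. TRBV5 and TRBJ2-5 with TRAV7N-6 and TRAJ22 had 5 (WT) and 5 (KO) clonotypes with anti-4-1BB, against 0 in both IgG libraries. TRBV15 and TRBJ2-7 with TRAV6D-6 and TRAJ32 had 8 (WT) and 0 (KO) with anti-4-1BB, against 0 in both IgG libraries. TRBV13-3 and TRBJ1-3 with TRAV6N-7 and TRAJ16 had 5 (WT) and 2 (KO) with anti-4-1BB, against 0 in both IgG libraries. TRBV1 and TRBJ2-4 with TRAV13-1 and TRAJ30 had 7 (WT) and 3 (KO) with anti-4-1BB, against 2 (WT) and 2 (KO) with IgG, so it was present in all 4 libraries. The class with more IgG clonotypes, TRBV16 and TRBJ2-7 with TRAV13N-2 and TRAJ27, had 0 (WT) and 1 (KO) with anti-4-1BB, against 2 (WT) and 5 (KO) with IgG. The remaining classes of TRBV10 with TRAV10 and of TRBV13-3 with TRAV14-1 had 4 and 5 clonotypes in WT with anti-4-1BB and 0 in KO with anti-4-1BB, against 1 and 0 in WT with IgG and 0 in KO with IgG.

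Beta chains added or lost with treatment were counted as TRB receptors of the same V, J and CDR3 amino acids. Of 14559 receptors 79 were in both anti-4-1BB libraries and in neither IgG library, 29 were in both IgG libraries and in neither anti-4-1BB library, and 4 were in all 4. After thinning each library to 2656 cells these expected numbers were 32.8, 23.5 and 1.37 at equal cell numbers. Nucleotide identity left 26 and 9. Added receptors used Vβ5 in 12 of 79 (15.2%), lost ones in 1 of 29 (3.45%), and all receptors of experiment 1 in 7.49%. Added receptors could come only from the anti-4-1BB libraries, where Vβ5 made up 8.94% (WT) and 12.9% (KO) of clonotypes. Lost ones could come only from the IgG libraries, where it made up 3.42% (WT) and 1.60% (KO). The 2 counts therefore repeat the difference in Vβ5 use and are no separate result. Receptors of both sets mostly had 2 or more nucleotide sequences, 65 of 79 added and 21 of 29 lost ones, against 387 of all 14559 receptors. They had 2 or more alpha chains in 77 of 79 added and 25 of 29 lost ones, against 844 of all 14559. Either set required a receptor to be in 2 libraries, with at least 1 clonotype in each. Most of all 14559 receptors were in 1 library, so these 2 contrasts follow largely from the selection and carry no conclusion. In experiment 2, 22 of the 79 added (27.8%) and 6 of the 29 lost receptors (20.7%) occurred, against 4.04% of all receptors. That background was not limited to receptors found in 2 libraries, so the contrast says nothing about treatment.

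**Figure D5:**
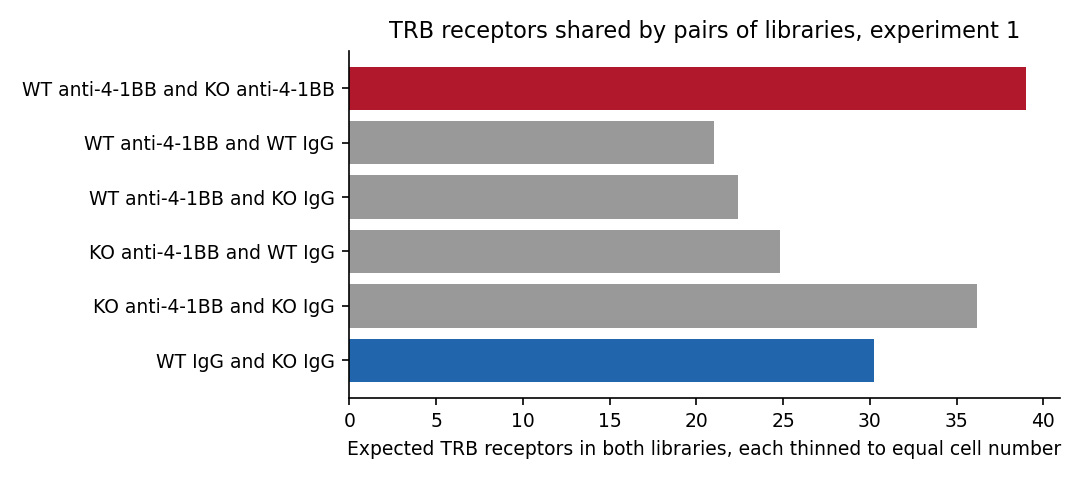
Expected number of TRB receptors (V, J and CDR3 amino acids) found in both libraries of a pair, with each library of experiment 1 thinned to 2656 cells; the red bar is the anti-4-1BB pair, the blue bar the IgG pair and grey bars are pairs across treatments. The anti-4-1BB pair shares 39.0 receptors and the IgG pair 30.2, and the pair of KO libraries across treatments, with 36.2, lies between them.

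Pairs of libraries shared few receptors and, by CDR3 amino acids, did not sort by treatment alone. After thinning, WT and KO with anti-4-1BB shared 39.0 receptors and WT and KO with IgG shared 30.2. Across treatments, the KO libraries shared 36.2 and the WT libraries 21.0. KO with anti-4-1BB and WT with IgG shared 24.8, and WT with anti-4-1BB and KO with IgG shared 22.4. By CDR3 nucleotides after thinning, the anti-4-1BB pair shared 12.3 and the IgG pair 9.46, against 6.17 to 8.79 across treatments. By nucleotides of both chains, the full libraries shared 3 clonotypes with anti-4-1BB and 4 with IgG, against 0 or 1 across treatments. After thinning, the anti-4-1BB pair shared 0.898 of these, below the 0.995 of KO with anti-4-1BB and WT with IgG. These counts are small and were not tested.

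The most frequent added and lost receptors are shown by their commonest TRB CDR3 in a library. Capitals mark positions that differ between the libraries shown for the same receptor, and none stand where the commonest sequence was the same. The first added receptor is a beta chain of the class above, with 27 (WT) and 1 (KO) clonotypes, 8 nucleotide sequences and 20 alpha chains.
Added, TRBV5 and TRBJ2-7, WT anti-4-1BB: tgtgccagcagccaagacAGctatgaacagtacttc
Added, TRBV5 and TRBJ2-7, KO anti-4-1BB: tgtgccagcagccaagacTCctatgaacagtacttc
Added, TRBV5 and TRBJ2-5, both anti-4-1BB libraries: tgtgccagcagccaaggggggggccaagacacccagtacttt
Lost, joined label and TRBJ2-5, both IgG libraries: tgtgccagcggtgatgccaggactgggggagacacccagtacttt
Lost, TRBV14 and TRBJ2-4, both IgG libraries: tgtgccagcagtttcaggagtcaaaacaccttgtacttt

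The second added receptor had 5 clonotypes in each anti-4-1BB library. The first lost receptor had 2 (WT) and 1 (KO) clonotypes with IgG, in 13 and 1 cells. The second lost receptor also had 2 (WT) and 1 (KO) clonotypes with IgG, in 9 and 2 cells. Each of these 2 receptors had 1 nucleotide sequence and 2 alpha chains, so its KO clonotype matched a WT clonotype in both chains. Why the same clonotype occurred in libraries of both genotypes was not tested. These lost receptors were few clonotypes, some of them with many cells.

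Invariant natural killer T receptors, which join TRAV11 to TRAJ18 and recognise lipids on CD1d, were a smaller share of cells with anti-4-1BB than with IgG within each genotype. They were found in 9 of 8871 WT (0.101%) and 9 of 2656 KO cells (0.339%) with anti-4-1BB, against 11 of 4057 WT (0.271%) and 16 of 2728 KO cells (0.587%) with IgG, a mean difference of -0.209 ± 0.055 percentage points (SD, n = 2 pairs). KO with anti-4-1BB lay above WT with IgG, so the groups overlapped. Their usual beta partner, TRBV13-2 or the joined label, was found in 0 of 9 (WT) and 2 of 9 (KO) with anti-4-1BB, against 6 of 11 (WT) and 7 of 16 (KO) with IgG. The pairing of the joined label with TRAV11 was seen in 1 (WT) and 2 (KO) clonotypes with anti-4-1BB, against 6 (WT) and 9 (KO) with IgG, and with a log2 difference of -2.74 it missed the threshold (edgeR adjusted p = 0.0549). As single segments, TRAV11 (14:53519303-53519859) had a log2 difference of -0.45 and TRAJ18 of -0.15, and neither passed the test. TRAV1, the MAIT segment, had one of -0.17, which turned to 0.07 with a minimum of 3 UMIs per chain. The commonest alpha CDR3 of these cells, in 16 of 45 cells and in all 4 libraries, is shown with the middle in capitals.
TRAV11 and TRAJ18, TRA: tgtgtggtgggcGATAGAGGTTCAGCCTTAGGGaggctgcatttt

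The treatment differences of experiments 1 and 2 differed for 6 of 153 segments by the test of the difference (3.92%), with an edgeR adjusted p of 0.0437 for each, while 30 had an unadjusted p under 0.05. TRBV12-1 was used by 0.925% (WT) and 0.650% (KO) of clonotypes with anti-4-1BB in experiment 2, against 1.15% (WT) and 1.05% (KO) with IgG, so its log2 difference was 2.91 higher in experiment 1. In experiment 2 the Vβ5 family made up 1.67% (WT) and 1.53% (KO) of clonotypes with anti-4-1BB, against 2.05% (WT) and 2.22% (KO) with IgG. DESeq2 called 1 of these differences, and TMM factors left 0.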

How the data were processed

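Each deposited file lists the TCR contigs of 1 library with V, D and J labels and CDR3. Its reads and UMIs are raw counts, as deposited by the authors. Bcl2fastq 2.20.0, Cell Ranger 7.1.0, Seurat and build GRCm38 are named in the submitters' processing notes; the V(D)J reference is not given in the sources used here. The files list 0 contigs marked as not productive, low confidence or outside cells. Of 165 V and J labels 164 matched a RefSeq symbol (GRCm38.p6); the other joins TRBV12-2 and TRBV13-2.

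Members had 1 TRB and 1 or 2 TRA contigs, and the TRA with most UMIs was the main one. Cells with 2 TRB contigs, possible doublets, were left out. They made up 9.33% (WT) and 3.15% (KO) of listed cells with anti-4-1BB, against 4.41% (WT) and 3.82% (KO) with IgG. Among members, 8.98% (WT) and 6.70% (KO) had 2 TRA contigs with anti-4-1BB, against 5.18% (WT) and 6.09% (KO) with IgG. The part of this imbalance in the results was not tested. Clonotypes per segment or pairing were tested with edgeR 4.0.16 (R 4.3.3; quasi-likelihood, no abundance trend, library size as the total) where 10 or more were found in at least 2 libraries, with Benjamini-Hochberg adjustment over all segments or pairings. Prior degrees of freedom were infinite for TRAV too. The fit was tested on simulated data. For segments it called 6 of 8 changes of 2-fold, 6 of 7 of 4-fold and 3 of 136 unchanged segments. For pairings it called 2 of 16 changes of 2-fold, 12 of 16 of 4-fold and 0 of 351 unchanged pairings. Most 2-fold changes of pairings were therefore missed. DESeq2 1.42.0, TMM factors, no filter, cells, 3 UMIs per chain, other clonotype definitions, no genotype block and leaving out each library were alternatives. Other values used pandas 2.3.3, numpy 2.4.6 and scipy 1.17.1 in Python 3.11.15, with matplotlib 3.10.9 for figures. Named were the called features, the 8 segments and 5 pairings with the smallest p in each direction, and the Vβ5, Vβ8, invariant NKT and MAIT lists. Members and lists were chosen with earlier results of these data known.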

Additional observations from a re-analysis of the deposited data

Results flagged for a closer look

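In 6 segments the treatment difference in experiment 1 differed from that in experiment 2 by a test of the difference itself (edgeR adjusted p of 0.0437 each). On the log2 scale experiment 1 minus experiment 2 was 2.91 for TRBV12-1, 1.59 for TRAV11, 1.49 for TRAV6-2, 1.45 for TRAV14-3, 1.11 for TRAV5-4 and 0.919 for TRAJ18. TRAV11 was used by 0.277% (WT) and 0.669% (KO) of clonotypes with anti-4-1BB in experiment 1, against 0.380% (WT) and 0.910% (KO) with IgG. In experiment 2 it was used by 0.498% (WT) and 0.480% (KO) with anti-4-1BB, against 1.78% (WT) and 2.2% (KO) with IgG. The knockout, tamoxifen and the experiment cannot be told apart in these comparisons.

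In 7 values other than single segments, both genotypes had one sign in experiment 1 and both the opposite sign in experiment 2. These differences were not tested. The expanded share differed by -6.67 percentage points (anti-4-1BB minus IgG) in experiment 1 and by 15.0 in experiment 2. The log2 chance of sharing a clonotype differed by -1.46 in experiment 1 and by 2.22 in experiment 2. The share of the 10 largest clonotypes differed by -1.8 percentage points in experiment 1 and by 5.10 in experiment 2. The Vβ5 share, which contains TRBV12-1, differed by 8.4 in experiment 1 and by -0.537 in experiment 2, and the Vβ8 share by -5.21 and 0.521. Mean TRA CDR3 length differed by 0.0465 amino acids in experiment 1 and by -0.109 in experiment 2. Mean TRB hydropathy differed by 0.0579 in experiment 1 and by -0.00706 in experiment 2, where the WT libraries were nearly equal (-3.31e-04).

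Vβ5 was also counted in cells of experiment 1 that are not members. Among cells with a TRB and no TRA, 6.5% (WT) and 9.27% (KO) of TRB contigs were Vβ5 with anti-4-1BB, against 2.45% (WT) and 2.11% (KO) with IgG. Among cells with 2 TRB contigs, 7.24% (WT) and 12.3% (KO) of TRB contigs were Vβ5 with anti-4-1BB, against 3.43% (WT) and 3.11% (KO) with IgG.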

How the results depend on the processing

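The 2 libraries a side limit every comparison, and the KO anti-4-1BB library limits rare receptors. Segment calls, 0 as reported, were 1 with TMM factors, DESeq2, cells counted, the joined label read as TRBV13-2, no genotype block, or the adjusted deviances of edgeR 4 (an alternative chosen after seeing the data, as was leaving out Vβ5), and 0 to 3 without 1 library. Pairing calls were 0 with DESeq2, with no filter, with cells counted and without Vβ5 receptors, 5 with the joined label read as TRBV13-2, 13 without the genotype block and 0 to 5 without 1 library, against 13 as reported. Calls between experiments were 0 with TMM factors, no filter and 3 UMIs per chain, 1 with DESeq2, with cells counted and without the genotype block, 3 without Vβ5, and 0 to 2 without 1 library, against 6. Without the block 2 pairings were called lower and 11 higher, against 1 lower and 12 higher with it. The expanded share differed by -3.42 without thinning and -4.69 without Vβ5; the log2 chance of sharing a clonotype by -1.36 with amino acids, -1.56 with 3 UMIs and -1.12 without Vβ5. TRB length differed by -0.0334 and Vβ8 by -2.91 without Vβ5. Invariant NKT receptors differed by -0.266 with clonotypes counted once. Added receptors were 32.8 after thinning, 26 by nucleotides in the full libraries and 10.9 by nucleotides after thinning.

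The WT pair and the KO pair alone gave -7.42 (WT) and -5.93 (KO) for the expanded share, -1.49 (WT) and -1.44 (KO) for the log2 chance, -1.39 (WT) and -2.22 (KO) for the 10 largest, 5.52 (WT) and 11.3 (KO) for Vβ5, -6.04 (WT) and -4.38 (KO) for Vβ8, -0.0472 (WT) and -0.0588 (KO) for TRB length, 0.0638 (WT) and 0.0293 (KO) for TRA length, 0.0272 (WT) and 0.0886 (KO) for hydropathy, 0.0416 (WT) and 0.144 (KO) for charge, and -0.170 (WT) and -0.248 (KO) for invariant NKT receptors. Without 1 library TRAV6N-5 ranged from -0.89 to 1.22 and TRAV13N-1 from -0.75 to 0.30, reversing without either WT library. The joined label reversed to 0.0432 with TMM factors, 0.114 with DESeq2 and 0.0465 without Vβ5, and TRAV1 to 0.0749 with 3 UMIs. The cause was not tested.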
